A study of Mus musculus with 4 samples.

Results

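The 8 genes Hoxd1, Hoxd3, Hoxd4, Hoxd8, Hoxd9, Hoxd10, Hoxd11 and Hoxd12 were examined for open chromatin in mouse embryonic stem cells. They make up the HoxD cluster on chromosome 2 apart from Hoxd13, which lies at its edge. Members were chosen by position: every merged peak interval that overlapped a window of 109 kb (mm10), from the Hoxd13 start to beyond Hoxd1, was taken and given to the listed gene it overlapped or, failing that, to the nearest one. The window held 31 of the 208211 merged regions of the genome. Its limits are the end of one Hox-/- peak, in the region chr2:74667195-74668983, and the start of the next, in the region chr2:74777650-74778254, so the lack of Hox-/- peaks between them was fixed by the choice of window and is described here without being a result.

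ATAC-seq uses a transposase to insert sequencing adapters where DNA is accessible. It was applied to cells of genotype wt and to cells of genotype Hox-/-, with 2 libraries each, and the series title states that the mutant lacks the function of all Hox genes. The titles of the Hox-/- libraries carry the letters BADC, which the labels do not explain. The labels name no strain, clone or way in which the genes were inactivated, and do not say whether replicates were separate cultures, so the spread between replicates may be technical. All 4 libraries came from cells grown in serum with leukaemia inhibitory factor, 3 μM of the GSK-3 inhibitor CHIR99021 and 1 μM of the MEK1/2 inhibitor PD0325901, and went through the same transposition protocol. The deposited lists hold 213705 and 216795 peaks for wt replicates 1 and 2, and 191704 and 200214 peaks for Hox-/- replicates 1 and 2. They give no read numbers and sequencing depth is unknown. As a check of the labelled cell type, the 7 of 8 stem cell marker genes with a start in the gene table (Pou5f1, Sox2, Nanog, Esrrb, Klf4, Zfp42 and Tfcp2l1) had a peak within 1 kb of a start in all 4 libraries. Of 5 fibroblast markers, 2 had a start in the table (Col1a2 and Twist2), and both had a peak in all 4 libraries. Their median percentile, 45.9 to 55.6, lay below the 84.5 to 88.1 of the stem cell markers, and their part in any result below was not tested. Of 4 primitive endoderm markers, 1 had a start in the table (Pdgfra), with a peak in wt replicate 1 only, at percentile 44.1.

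Hox genes encode homeodomain transcription factors that assign position along the body axis and, for HoxD, also along the limbs. Their order on the chromosome follows the order in which they are switched on: genes at the Hoxd1 end act early and towards the head, and those at the Hoxd13 end late and towards the tail and the digits. In embryonic stem cells the clusters are held silent by Polycomb complexes, with marks of activation and repression on the same promoters. CTCF, a zinc finger protein that helps to partition chromatin, binds at several places in the HoxD cluster.

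Promoter sequences are shown for the starts on which the layout below turns: 3 with a wt peak over them (Hoxd10, Hoxd9 and Hoxd1), the 2 starts with no peak within 1 kb (Hoxd12 and Hoxd4), and the antisense gene Hoxd3os1, whose start lies in the strongest region. Each is the stretch of 250 bases before the start, from RefSeq (GRCm38.p6, the same assembly as mm10), 5′ to 3′ on the gene's strand. Of the 9 starts of the members, 5 lay within a region. In the first 5 sequences the capitals mark each CG dinucleotide, and in Hoxd3os1 they mark a match to part of the CTCF motif.
Hoxd12 (chr2:74674763-74675012, plus strand): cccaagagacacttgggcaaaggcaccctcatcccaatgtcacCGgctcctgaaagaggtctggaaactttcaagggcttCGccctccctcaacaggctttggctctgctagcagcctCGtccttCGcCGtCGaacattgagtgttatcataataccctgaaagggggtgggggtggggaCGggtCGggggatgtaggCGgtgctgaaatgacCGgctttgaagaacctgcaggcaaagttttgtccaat
Hoxd10 (chr2:74691641-74691890, plus strand): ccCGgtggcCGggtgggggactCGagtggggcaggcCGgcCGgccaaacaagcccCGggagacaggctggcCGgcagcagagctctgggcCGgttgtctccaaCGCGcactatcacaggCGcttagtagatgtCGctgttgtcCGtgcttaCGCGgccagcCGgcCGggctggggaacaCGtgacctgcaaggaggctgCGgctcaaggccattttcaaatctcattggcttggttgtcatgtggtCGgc
Hoxd9 (chr2:74697513-74697762, plus strand): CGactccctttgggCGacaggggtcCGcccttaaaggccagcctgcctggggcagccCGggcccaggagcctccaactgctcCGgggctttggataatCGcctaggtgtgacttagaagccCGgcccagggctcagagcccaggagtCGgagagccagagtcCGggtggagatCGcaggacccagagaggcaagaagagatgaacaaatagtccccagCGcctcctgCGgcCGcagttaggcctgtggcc
Hoxd4 (chr2:74721728-74721977, plus strand): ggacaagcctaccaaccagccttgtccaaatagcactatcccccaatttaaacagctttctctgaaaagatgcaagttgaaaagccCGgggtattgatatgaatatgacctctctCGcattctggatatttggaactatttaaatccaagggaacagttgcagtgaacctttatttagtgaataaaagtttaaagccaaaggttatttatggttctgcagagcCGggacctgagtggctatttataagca
Hoxd1 (chr2:74762730-74762979, plus strand): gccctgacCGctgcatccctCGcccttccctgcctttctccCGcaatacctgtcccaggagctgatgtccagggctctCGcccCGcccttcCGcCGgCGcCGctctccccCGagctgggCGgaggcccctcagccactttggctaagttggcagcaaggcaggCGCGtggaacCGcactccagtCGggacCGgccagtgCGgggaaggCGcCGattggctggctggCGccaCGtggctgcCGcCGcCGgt
Hoxd3os1 (chr2:74716131-74716380, minus strand): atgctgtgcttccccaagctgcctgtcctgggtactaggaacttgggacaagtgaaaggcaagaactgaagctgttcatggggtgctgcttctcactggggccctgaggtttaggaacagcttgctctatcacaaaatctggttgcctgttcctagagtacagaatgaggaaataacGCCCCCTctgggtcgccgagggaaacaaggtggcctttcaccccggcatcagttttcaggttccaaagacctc

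These sequences differed widely in CG content. The stretch before Hoxd1 had 24 CG dinucleotides and a G+C content of 71.6%, and that before Hoxd10 had 20 and 65.6%. Hoxd9 had 13 CG dinucleotides, Hoxd12 had 10 and Hoxd4 had 3, with a G+C content of 40.4% at Hoxd4. The median over 32851 promoters in the table was 6 CG dinucleotides, and 88% of promoters had fewer than Hoxd1, 82.1% fewer than Hoxd10 and 29% fewer than Hoxd4. Of the other members, Hoxd3 had 12 and Hoxd8 had 6, while Hoxd11 had 2 before its first start and 20 before its second. The letters TATAAA, searched on both strands, were found before 1 of the 9 starts of the members, that of Hoxd4, and in 12.4% of all promoters. CCAAT was found before 6 of the 9 starts and in 33.8% of promoters, and GGGCGG before 3 of the 9 and in 32.7% of promoters.

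The wt layout across the cluster was an open pattern of many regions of modest strength. The window held 40 and 46 listed peaks in wt replicates 1 and 2, in 26 and 29 intervals. After merging over libraries, 29 of the 31 regions lay wholly inside the window, of which 22 were called in both wt libraries, 3 in wt replicate 1 alone and 4 in wt replicate 2 alone. Counting the regions at the 2 borders, 24 of 31 were called in both wt libraries, a share of 77.4% (exact 95% binomial interval 58.9% to 90.4%, counting error only). This was close to the share over the genome, 77.5% of 189270 regions with a wt peak. Peaks inside the window covered 13034 and 12997 bases in wt replicates 1 and 2, or 12% and 11.9% of its length. Cut into consecutive tiles of the window's length, chromosomes 1 to 19 and X held a median of 5 wt regions per tile, and 1.56% of the 24156 tiles held at least 29.

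Strength was read as a percentile within each list, in which 100 is the peak with the highest −log10 p of that library. Inside the window the median percentile was 27.3 in wt replicate 1 and 31.2 in wt replicate 2, against genome-wide medians of 54.7 and 54.5 over regions. The range was wide, from 0.719 to 90.8 in replicate 1 and from 1.43 to 87.3 in replicate 2. The median fold over background was 3.23 and 3.38, beside 4.95 and 4.99 over all regions. Of the 22 replicated regions, 2 were among the 50000 strongest peaks of both wt lists, while 28.2% of replicated regions were genome-wide. The merged regions inside were 200 to 1051 bp wide with a median of 392 bp, near the genome-wide median of 431 bp. The 7 regions found in 1 wt library only were narrow, at 200 to 392 bp, and weak, at percentiles of 3.35 to 25.6.

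**Figure D1:**
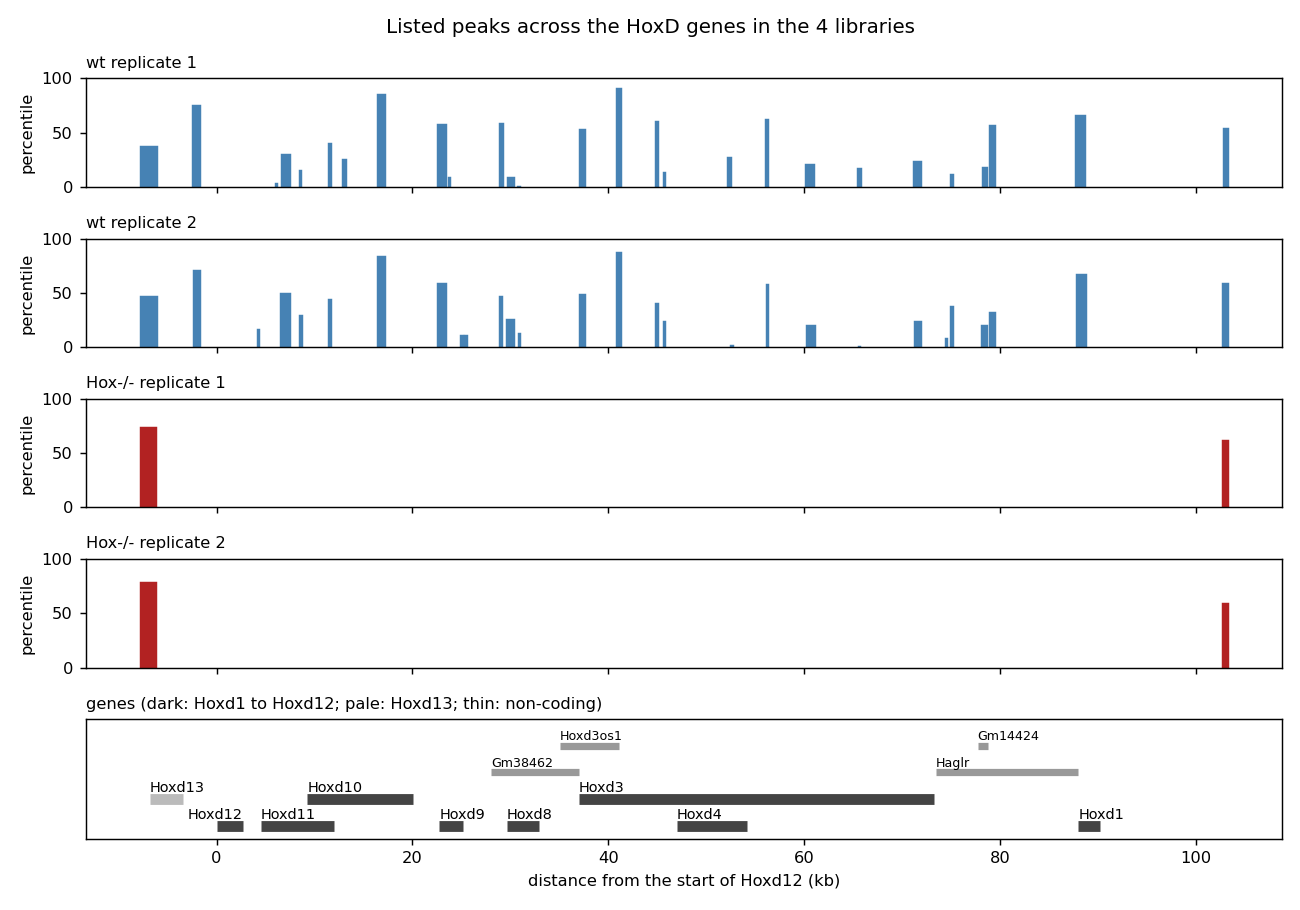
Position of listed peaks along the HoxD genes in each library (x axis, distance in kb from the Hoxd12 start; y axis, percentile of the best peak within its own list; each bar spans a region from its first to its last listed base). Both wt libraries show peaks from the Hoxd13 side to Hoxd1, highest near 41 kb and 17 kb, and the Hox-/- libraries show only the 2 regions at the borders.

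At the Hoxd13 side lies Hoxd12 (gene 15432, chr2:74675013-74677705), a late-acting gene of limb and trunk. No peak was listed within 1 kb of its start in any library. Its single region inside the window was chr2:74672532-74673324, in the interval between Hoxd13 and Hoxd12, 1689 bp before the Hoxd12 start. The region lay nearer to Hoxd13, 929 bp from the end of that gene. It was given to Hoxd12 because Hoxd13 is not a listed member. In wt replicates 1 and 2 it ranked 51483 and 63572, with a fold of 6.84 and 5.54, and carried 2 summits in each. Its mean percentile of 73.3 was the third-highest inside the window. Open chromatin assigned to Hoxd12 was thus listed between Hoxd13 and Hoxd12 and not over the Hoxd12 start.

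Hoxd11 (gene 15431, chr2:74679558-74687016), which patterns the forearm and the lumbosacral spine, had 5 regions, of which 3 were replicated. At its first start only a narrow region at chr2:74679142-74679343 was listed, in wt replicate 2 alone, at percentile 16.3. Its second start, at 74682323, lay within the widest region inside the window, chr2:74681488-74682538 (1051 bp), which had 2 and 3 summits in wt replicates 1 and 2. This region stood at percentile 30.5 and 49.9, a difference of 19.4 points between replicates. A further region, at chr2:74686410-74686677, lay within both Hoxd11 and Hoxd10 as the table draws them and stood at percentiles 40.9 and 44.6.

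Hoxd10 (gene 15430, chr2:74684273-74695106), a gene of lumbar motor neurons and limbs, had the strongest start of all members. The region chr2:74691391-74692186 covered the start at 74691891, and ranked 30821 in wt replicate 1 and 34678 in wt replicate 2 (fold 8.93 and 8.80, −log10 p of 97.1 and 86.6). It had 1 summit in each library, 101 and 102 bases before the start, within the printed sequence. The summits thus coincided to 1 bp between replicates. The other region given to Hoxd10, at chr2:74687868-74688259, was found in wt replicate 1 alone at percentile 25.6.

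Hoxd9 (gene 15438, chr2:74697763-74700208), a paralogue group 9 gene of limb and lower spine, had its start within chr2:74697476-74698418, a region of 943 bp with 3 summits in each wt library. Its rank was 90312 in wt replicate 1 and 88274 in wt replicate 2, at a fold of 4.57 and 4.85. The best summit lay 76 bases before the start in replicate 1 and 214 bases after it in replicate 2, so the replicates differed in which of the summits was highest. The 3 other regions at Hoxd9 were each called in 1 wt library, at percentiles of 9.46 to 11.5.

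Hoxd8 (gene 15437, chr2:74704615-74707933) stands in the middle of the cluster and had 3 replicated regions in a row. The strongest was not over the start but before it: chr2:74703826-74704221 ranked 88370 and 114365 (fold 5.17 and 4.12), with summits 598 and 616 bases before the start. The region over the start, chr2:74704586-74705372, stood at percentiles of only 8.76 and 26.3, with 4 and 2 summits. The third, at chr2:74705707-74706009, stood at 0.719 and 13.5 and is the weakest of the replicated regions in wt replicate 1.

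Hoxd3 (gene 15434, chr2:74711993-74748271), which shapes the first neck vertebrae, is the longest member at 36.3 kb and received 12 regions, of which 11 were replicated. Of the 12, 8 lay within the gene and 4 between it and Hoxd1. This count depended on the rule of assignment: by the nearest start in place of the gene body, Hoxd3 had 2 regions, Hoxd4 had 6 and Hoxd1 had 6. A region of 593 bp, chr2:74712005-74712597, began 12 bp after the Hoxd3 start and ranked 99233 and 110979 (fold 4.10 and 4.0), with summits 216 and 222 bases into the gene. It also contained a start of the lncRNA gene Gm38462, which is transcribed the other way.

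The strongest region of the whole window lay inside Hoxd3, at the start of the antisense lncRNA gene Hoxd3os1 (chr2:74710044-74716130). At chr2:74715767-74716335, it ranked 19687 in wt replicate 1 and 27520 in wt replicate 2, with a fold of 10.7 and 10.0 and a −log10 p of 140.6 and 107.2. Its single summit lay 158 and 156 bases past the Hoxd3os1 start and moved by 2 bp between replicates. The printed Hoxd3os1 sequence contains a match to AGGGGGC, letters from the core of the CTCF motif, searched on both strands, at chr2:74716197-74716203. The match lies within the region, 225 and 223 bp from the summits of wt replicates 1 and 2. These letters were found in 9.43% of all promoters and before 0 of the 9 starts of the members; a match is not evidence of binding. Because the lists carry no strand, signal belonging to Hoxd3 and to its antisense partner cannot be told apart.

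Elsewhere in Hoxd3, the regions at chr2:74731027-74731343 and chr2:74719721-74720050 were the strongest apart from the Hoxd3os1 start and the region beside the Hoxd3 start. The first stood at percentiles 62.5 and 58.3, the second at 60.5 and 41.2. Another, chr2:74735113-74736131, was 1019 bp wide, the third-widest inside the window, but stood at only 20.7 and 20.6. The strongest region of the window, for comparison, was 569 bp wide. Over the 22 replicated regions Spearman's rho of width and mean percentile was 0.24, beside 0.57 over all replicated regions of the genome, both given as a description across regions.

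Hoxd4 (gene 15436, chr2:74721978-74729160), a gene of hindbrain and neck that responds to retinoic acid, had no peak within 1 kb of its start in any library. The nearest replicated region ended 1197 bp before the start, at percentiles of 13.6 and 24.0. The 1 region within the gene, chr2:74727087-74727737, stood at 27.3 in wt replicate 1 and at 1.62 in wt replicate 2, with summits 325 bp apart. It was listed within both Hoxd4 and the longer Hoxd3. The microRNA gene Mir10b (chr2:74726070-74726137), which lies in Hoxd4, contained no peak and was 950 bp from this region.

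Hoxd1 (gene 15429, chr2:74762980-74765142), the earliest of the members and in mouse a gene of pain-sensing neurons, had a single broad region over its start. At chr2:74762671-74763716 it was 1046 bp wide, the second-widest inside, and its rank was 71840 in wt replicate 1 and 69616 in wt replicate 2, at a fold of 7.57 and 8.04. The best summits lay 3 bases after and 36 bases before the start. The region also overlaps an end of the lncRNA gene Haglr (chr2:74748422-74762896), and the lists do not tell signal of Hoxd1 and of Haglr apart. On either side of the region were the longest stretches without a region in the window, 8214 bp towards Hoxd3 and 13933 bp towards the border, against a median spacing of 2972.5 bp. The first of these stretches falls in Haglr, whose other end contained 4 regions, the strongest by mean at percentiles of 57.5 and 32.4 in wt replicates 1 and 2. In wt replicate 2 alone the region at chr2:74749868-74750219 stood higher, at 38.2.

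**Figure D2:**
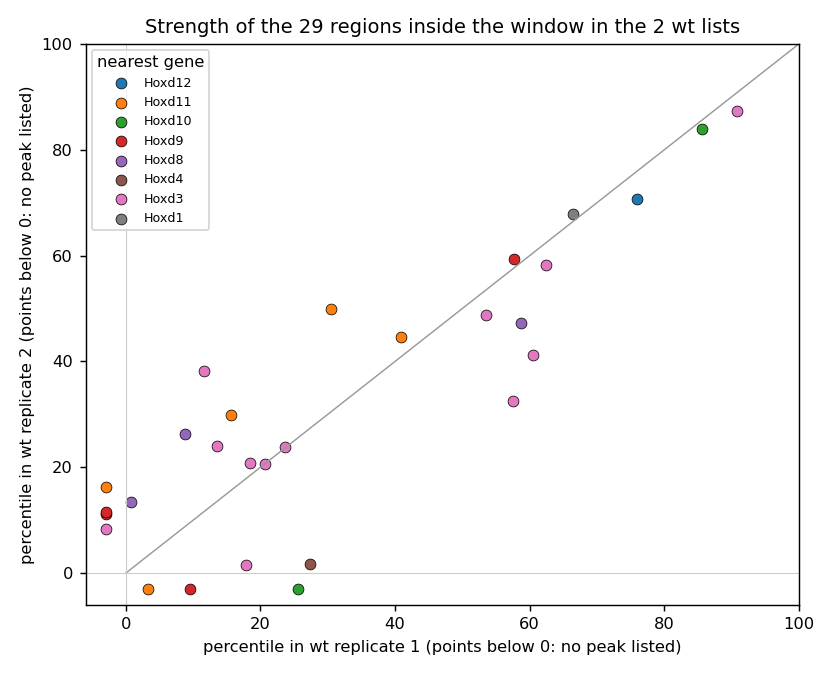
Percentile of each of the 29 regions inside the window in wt replicate 1 (x axis) and wt replicate 2 (y axis), coloured by assigned gene, with the line of equality and with regions listed in 1 library drawn below 0. The 4 regions of highest mean percentile differ between replicates by at most 5.23 points, and the other replicated regions by up to 26.7.

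The wt replicates ordered the regions alike but less tightly than over the genome. Over the 22 replicated regions Spearman's rho of the percentiles was 0.81 and Pearson's r 0.86, and over all replicated regions they were 0.94 and 0.92. These are correlations across regions that share a library, given as a description. The median difference in percentile was 7.84 points (0.19 to 26.7), beside 4.77 genome-wide. Summits of the 2 libraries lay within 50 bp of each other in 14 of the 22 regions, against 87.7% genome-wide. The genome-wide values were not matched for strength. A mean wt percentile of up to 25 was held by 10 of the 22 HoxD regions and by 18908 of 146769 genome-wide. Ordered by mean percentile, the top 4 regions were the Hoxd3os1 start (89.0), the Hoxd10 start (84.8), the region between Hoxd13 and Hoxd12 (73.3) and the Hoxd1 start (67.1). The step from the second to the third, 11.5 points, exceeded the median difference between replicates. The steps from the first to the second (4.26) and from the third to the fourth (6.16) did not.

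At the gene starts, 6 of the 8 members had a peak within 1 kb in both wt libraries, while 69.2% of 17492 protein-coding genes did. Among the 100000 strongest lines of each library the members' count was 3, and with windows of 250 bp and 2.5 kb it was 6 and 8. The share of all genes was not computed at these settings. The members' starts were weaker than most: their median percentile was 58.2 (30.5 to 85.6) in wt replicate 1 and 54.6 (47.2 to 84.0) in wt replicate 2. Among all genes with a start peak the medians were 91.4 and 91.7. In order of mean percentile the starts ran Hoxd10, Hoxd1, Hoxd9, Hoxd8, Hoxd3 and Hoxd11. Hoxd10 and Hoxd1 held the first and second places in both wt libraries, and the step between them was 17.65 points. The steps from Hoxd9 to Hoxd8 (5.56) and from Hoxd8 to Hoxd3 (1.76) were smaller than the difference between replicates at Hoxd8, which stood at 58.6 and 47.2 by the region before its start. The step from Hoxd3 to Hoxd11 (10.98) was likewise smaller than the 19.4 points between replicates at Hoxd11. The order did not run along the chromosome.

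**Figure D3:**
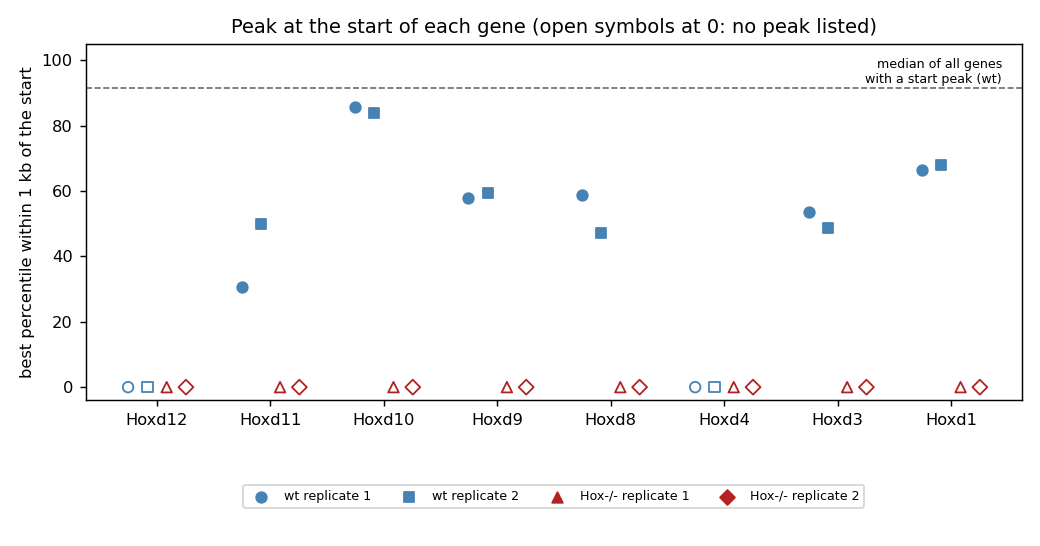
Best percentile of a peak within 1 kb of the start of each gene (y axis) in the 4 libraries, with genes in chromosome order from the Hoxd13 side (x axis). The dashed line is the wt median of all genes with a start peak; 6 genes have filled wt symbols, Hoxd12 and Hoxd4 have none, and all Hox-/- symbols are open.

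Of a list of 17 paralogues of the members in the HoxA, HoxB and HoxC clusters, 8 had a start in the table. Of these 8, 5 had a start peak in both wt libraries and 0 had one in a Hox-/- library. Hoxa10, the paralogue of Hoxd10, stood at percentiles 80.9 and 83.0 in wt replicates 1 and 2, beside the 85.6 and 84.0 of Hoxd10. Hoxb1, in the group of Hoxd1, stood at 69.4 and 66.1, beside 66.4 and 67.9 for Hoxd1. Within group 4 the members differed: Hoxb4 stood at 81.9 and 77.4 and Hoxc4 at 64.6 and 63.2, while Hoxd4 had no peak listed at its start. The 3 matched paralogues without a start peak in both wt libraries belong to groups whose HoxD member had one. Hoxb8 and Hoxa9 had none in either wt library, unlike Hoxd8 and Hoxd9. Hoxa11 had one in wt replicate 2 only, at 4.87, unlike Hoxd11. In group 3, Hoxa3 stood at 0.837 and 16.5 and Hoxd3 at 53.6 and 48.8.

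Over the span of the 8 genes (chr2:74675013-74765142, 90.1 kb) there were 3.11 wt regions per 10 kb, between those of HoxA (3.51) and of HoxB (2.76) and HoxC (2.51). The median percentile in wt replicates 1 and 2 was 26.5 and 29.9 in this span, 37.8 and 28.4 in HoxA, 36 and 40 in HoxB and 54.2 and 54.3 in HoxC. The HoxD regions were the narrowest, with a median of 374 bp against 419 bp in HoxA, 429.5 bp in HoxB and 673 bp in HoxC. The spans are not alike: those of HoxA, HoxB and HoxC take in all protein-coding Hox genes of the cluster, while this span leaves out Hoxd13. These are descriptions of the same 2 libraries and were not tested.

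In the Hox-/- libraries no peak was listed over any of the 8 genes. None of the 29 inside regions had a peak in Hox-/- replicate 1 or replicate 2. Over the gene span the number of listed peaks was 35 and 36 in wt replicates 1 and 2 and 0 in both Hox-/- libraries. The means were 35.5 ± 0.707 (SD, n = 2) and 0, so Hox-/- minus wt was −35.5. The covered length in the same span was 12241 and 12262 bases in wt, 13.6% of it in each library, and 0 in both Hox-/- libraries. The genotypes did not overlap, but the gene span lies within the chosen window, so the Hox-/- values were set by the choice and no p is given. The absence was not particular to HoxD. Of regions called in both wt libraries, 21 of 21 in this span had no Hox-/- peak, beside 5.44% over the genome. In HoxA it was 27 of 28, in HoxB 35 of 35 and in HoxC 24 of 25. A peak list does not tell missing DNA from closed chromatin, and this was not tested.

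The same count over the genome is given as a background. Of 146769 regions called in both wt libraries, 5.44% had no Hox-/- peak. In the whole window it was 22 of 24, or 91.7%, the remaining 2 being the border regions. This share was fixed by the choice of window, and nothing is read from it against the background. For single-library wt regions the genome-wide share was 53.8%, and all 7 such regions in the window had none. Weak regions went unlisted in Hox-/- often: among replicated regions with a mean wt percentile of up to 25, the share was 25.6%, and 10 of the 22 HoxD regions fell in that class. In the classes above it the genome-wide shares were 7.71% (25 to 50, 3 HoxD regions), 0.487% (50 to 75, 7 HoxD regions) and 0.0625% (75 to 100, 2 HoxD regions). The 9 HoxD regions of the upper 2 classes include those over the starts of Hoxd10, Hoxd9, Hoxd1 and Hoxd3os1, and the one just after the Hoxd3 start. They also include the region between Hoxd13 and Hoxd12 and the one upstream of Hoxd8. For gene starts the background was 0.578%: 70 of 12109 genes with a start peak in both wt libraries had none in either Hox-/- library, and the 6 members are among them.

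**Figure D4:**
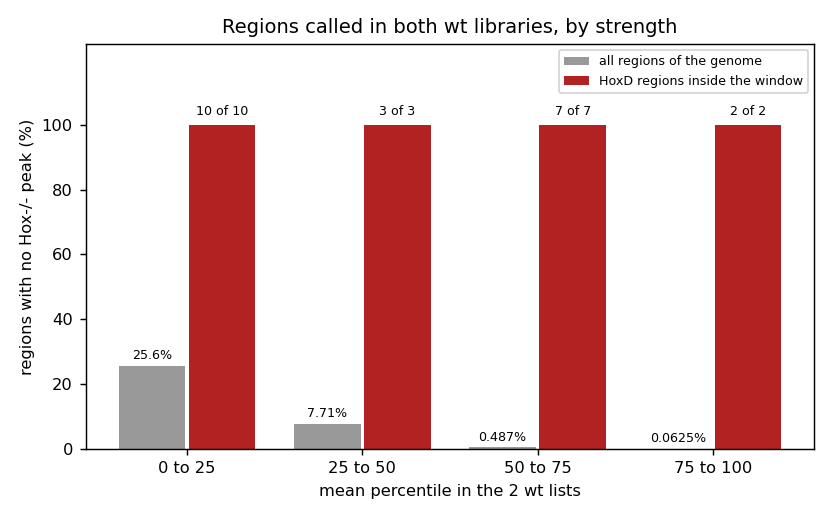
Share of regions called in both wt libraries that had no Hox-/- peak (y axis, percent), by mean wt percentile (x axis), for all regions of the genome and for the 22 HoxD regions inside the window. The genome-wide share falls from 25.6% to 0.0625%, and the HoxD share is 100% in each class because the window was drawn between Hox-/- peaks.

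Both border regions were called in all 4 libraries. The one at the Hoxd13 start, chr2:74667195-74668983, stood at percentiles 37.6 and 47.6 in wt replicates 1 and 2 and at 74.3 and 78.7 in Hox-/- replicates 1 and 2. Its fold was 3.58 and 3.57 in wt and 7.30 and 8.61 in Hox-/-. Both measures were higher in each Hox-/- list than in either wt list. Such values place a region within its own list, and the lists differ in length, so no test was made between genotypes. The listed interval ended 758 and 754 bp past the Hoxd13 start in wt, and 598 and 605 bp past it in Hox-/-. The border region beyond Hoxd1, chr2:74777650-74778254, stood at 54.5 and 58.8 in wt and at 62.2 and 59.98 in Hox-/-. Its summits in the 4 libraries lay between 74778048 and 74778082.

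The genes outside the Hox clusters most like the members were sought among 17470 protein-coding genes, by the distance between their start percentiles in the 4 libraries and the median over all 8 members, with a start without a peak set to 0 (55.7 and 49.4 in wt, 0 and 0 in Hox-/-). The 5 nearest were Ifngr2, Ush1c, S100a4, Nr2f2 and Bhlhe41, at distances of 6.95 to 15.0 points. Ush1c, at 47.9 and 45.8 in wt replicates 1 and 2, and Nr2f2, at 44.3 and 43.1, had no start peak in either Hox-/- library. Ifngr2 and S100a4 had 1 in Hox-/- replicate 1 only, at percentiles of 2.27 and 8.85, and Bhlhe41 had one in both, at 0.486 and 10.1. The likeness rests on 4 libraries and was defined by the same contrast as the window.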

How the data were processed

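The deposited files are 1 list of called peaks per library, for 2 wt and 2 Hox-/- libraries of mouse embryonic stem cells. Per the submitters' processing notes, the authors used cutadapt 4.8, Bowtie2 2.5.0, Picard 2.18.2, bedtools 2.30.0, MACS2 2.2.9.1 and deepTools 3.5.4 with build mm10, and the role of each is not given. Handling of duplicates, of mitochondrial reads and of the transposase shift is not given in the sources used here. The columns were read by the layout of narrowPeak, the format of the lists. By it each deposited line holds an interval, a display score (not used), a fold (ratio) over local background, a −log10 p, a −log10 q (lowest 1.30 in each list) and a summit position. These values are the authors' and were used only to rank and describe peaks within a list.

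Intervals of the 4 lists overlapping by at least 1 bp were merged in Python 3.11.15 (pandas 2.3.3, scipy 1.17.1). The percentile of a region is that of its best line by −log10 p. A region in several genes went to the one overlapped by more bases, then to the nearer start. Starts came from the RefSeq promoter table, with windows of 1 kb, and 17492 of 21900 protein-coding genes matched. All 8 members are named, with the regions at their starts, the 3 strongest, the 3 widest and further regions, some of them picked after their values were seen. The members and lists were chosen with earlier results of these data known, and the searched motifs after the data were seen. Merging and start matching were tested on simulated data. No exon annotation was used. Libraries with the same replicate number were not paired (correlation of replicate rank differences 0.004 over 122787 regions).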

Additional observations from a re-analysis of the deposited data

How the results depend on the processing

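Of the 47 alternative values for the results on the whole cluster, 25 use the Hox-/- lists (peak number, covered length and share without a Hox-/- peak). The window fixed the Hox-/- values at 0 between its borders, so the sign of these could not change and nothing is read from it. The other 22 rest on wt alone or on start peaks in both wt libraries; 18 stayed near the reported value (within 1.5 times for counts, within the SD or binomial interval otherwise) and 4 moved. The median interval width, 441.5 bp, became 570 bp when a −log10 q of 5 or more was required and 362 bp over the gene span, which leaves out the wide border region at Hoxd13. The share of replicated regions without a Hox-/- peak rose from 91.7% to 100% over the gene span, since that span leaves out both border regions. The highest number of regions at 1 gene fell from 12 to 6 when regions went to the nearest start, and members with a start peak in both wt libraries from 6 to 3 among the 100000 strongest lines. Hox-/- minus wt in peak number was −24 at a −log10 q of 5 or more and −7 among the 100000 strongest lines, and in covered length −10490 and −4507 bases, all nearer 0 because fewer peaks enter. Leaving out 1 replicate at a time, Hox-/- minus wt in peak number lay between −36 and −35, that in covered length from −12260 to −12240, the share without a Hox-/- peak from 91.67% to 93.1%, the median percentile from 27.33 to 29.89, the median width from 416 to 467 bp, the highest number of regions at 1 gene from 11 to 13, and members with a start peak stayed at 6. For the number of regions at each gene 32 more alternative values were computed, of which 6 moved. By the nearest start, Hoxd1 went from 1 to 6, Hoxd4 from 1 to 6 and Hoxd3 from 12 to 2. Regions at Hoxd9 fell from 4 to 1 at a −log10 q of 5 or more and to 2 without wt replicate 2, and those at Hoxd10 from 2 to 1 without wt replicate 1. With the replicate block, in which same-numbered libraries are compared, the differences were −35.5 peaks and −12250 bases, with the Hox-/- values again set by the choice of window and no p given. Unknown depth limits what absence from a list means for weak regions.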
